A study of Mus musculus with 6 samples.

Results

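The 10 genes described here encode transcription regulators of fat cells, of lipid synthesis and of mitochondria: Pparg, Cebpa, Cebpb, Cebpd, Srebf1, Mlxipl, Nr1h3, Ppargc1a, Ppargc1b and Esrra. They were taken by name from the 33184 genes of the deposited table, to see whether such regulators moved with the fat and mitochondrial genes of the same tissue. All 10 were found, and all 10 were among the 16005 genes that were tested, those averaging 0.5 FPKM or more (fragments per kilobase of gene, scaled to library size). The tissue was wounded skin of db/db BLKS mice, a diabetic line whose leptin receptor does not work, and mRNA was sequenced from 6 wounds. A round wound of 6 mm through epidermis and dermis was made in every mouse, and siRNA was injected around it at dpi1 (1 day post-injury). The siRNA, 2′OMe-modified and given at 3 sites around each wound, was a control siRNA (NC) for 3 libraries and SFRP2 siRNA for the other 3, and the wounds were collected at dpi4, although the titles carry day 3. The control animals thus carried the same diabetic genotype, wound and injection, and no unwounded or non-diabetic skin was compared. The ages of the mice are not given in the sources used here, and which SFRP2 siRNA sequence each animal received is not stated. Each library was treated as 1 animal, which the labels do not say, so p-values measure only the spread between these libraries, which may be technical.

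Pparg is the nuclear receptor that drives precursor cells to become adipocytes, and it keeps the mature cell in that state together with Cebpa, a leucine zipper factor. Cebpb and Cebpd switch on early in that programme, and both are also induced in acute inflammation. Srebf1 (SREBP-1), Mlxipl (ChREBP) and Nr1h3 (LXR alpha) turn on genes of lipid synthesis in response to insulin, sugar and oxidised sterols. Ppargc1a and Ppargc1b (PGC-1 alpha and beta) are coactivators that raise mitochondrial genes together with the orphan receptor Esrra (ERR alpha). In skin, these genes are used by the fat layer under the dermis, and several of them also by sebaceous glands, macrophages and keratinocytes.

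Sfrp2, the targeted gene, was measured at 11.6, 40.6 and 14.1 FPKM in NC 1 to 3 and at 50.6, 54.6 and 55.2 FPKM in SFRP2-siRNA 1 to 3. Its mRNA level went against the label, so each direction given below belongs to those libraries as labelled, and no lowered Sfrp2 mRNA is implied. The study itself reports less SFRP2 protein in wounds of diabetic mice given SFRP2 siRNA, by antibody staining at dpi3. SFRP2-siRNA 1 stood apart from the rest: its Pearson r to the other libraries over the tested genes was 0.889 to 0.93, while all other pairs had 0.951 to 0.976. NC 1 had 34.5% of its summed FPKM in mitochondrially encoded genes, against 11.5% to 21.4% in the other libraries. The libraries rested on 42.9 to 47.1 M reads, recovered from the steps between FPKM values, and the members' values rested on 223 to 10567 reads per library. With limma, 0 genes passed an adjusted p under 0.05 and an absolute log2 fold change above 1, which is 0.0% of those tested, with 0.518 as the lowest adjusted value. Taking an unadjusted p under 0.05, 458 genes (2.86%) were lower and 1075 (6.72%) higher in those labelled SFRP2-siRNA, and limma voom on the recovered reads gave 453 and 1064 with 0 adjusted calls. The groups did not overlap for 628 lower genes (3.92%) and 2226 higher genes (13.9%). This split turned with the scaling: 29.9% of the 1533 genes at an unadjusted p under 0.05 were lower in the values as deposited, and 63.2% of 1185 after median-of-ratios scaling. For genes whose groups did not overlap, 22% of 2854 were lower as deposited and 58.2% of 2114 after that scaling. Over all genes the median log2 fold change stood at 0.125 as deposited and 0.004 after that scaling.

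Of the 10 regulators, 8 had a lower mean and 2, Cebpb and Cebpd, a higher mean in the libraries labelled SFRP2-siRNA, and none passed the adjusted threshold. At an unadjusted p under 0.05, 3 were lower (Srebf1, Mlxipl and Ppargc1b) and 0 higher, beside 2.86% and 6.72% of all genes. This count depended on the scaling, as did the share of all genes. After median-of-ratios scaling 6 were lower, where Pparg, Ppargc1a and Esrra joined, beside 4.69% of all genes. With equal sums only Mlxipl remained, beside 1.92%. In 4 of the 10 regulators (Srebf1, Mlxipl, Ppargc1b and Esrra) every library labelled SFRP2-siRNA lay below every NC library, beside 3.92% of all genes, and 0 lay wholly above, beside 13.9%. The median log2 fold change of the 10 was -0.32, beside 0.13 for all genes. In bulk tissue, fewer cells of a type and less RNA per cell cannot be told apart, and this holds for each value below.

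**Figure D1:**
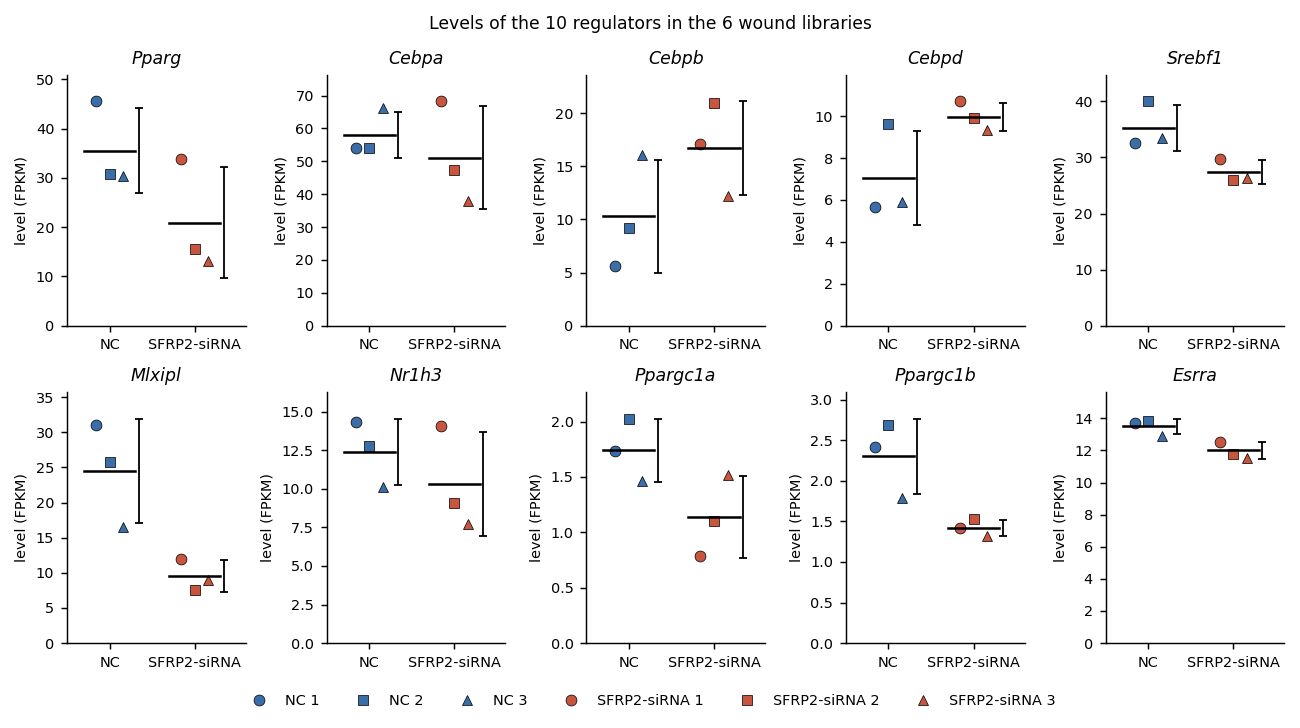
Level of each regulator in FPKM (linear axes from 0) in the 6 libraries, with NC in blue and SFRP2-siRNA in red, a bar at the group mean and a whisker of 1 SD (n = 3 each). Mlxipl, Srebf1, Ppargc1b and Esrra have every SFRP2-siRNA point below every NC point, while Pparg, Cebpa and Nr1h3 have SFRP2-siRNA 1 among or above the NC points.

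Pparg and Cebpa, the regulators of adipocyte identity, had lower means in the libraries labelled SFRP2-siRNA, with groups that overlapped for both. Pparg was measured at 45.5, 30.8 and 30.3 FPKM in NC 1 to 3 and at 33.9, 15.6 and 13.1 FPKM in SFRP2-siRNA 1 to 3. SFRP2-siRNA 1 lay inside the NC range and SFRP2-siRNA 2 and 3 below it, so the groups overlapped. Group means were 35.5 ± 8.63 and 20.9 ± 11.3 FPKM (SD, n = 3 each), and the log2 fold change came to -0.83 (SE 0.36, limma adjusted p = 0.52). Without SFRP2-siRNA 1 it was -1.23 and the groups no longer overlapped, and without SFRP2-siRNA 3 it was -0.58. Cebpa, which holds the mature adipocyte programme together with Pparg, was measured at 53.9, 54.0 and 66.2 FPKM in NC 1 to 3 and at 68.2, 47.3 and 37.9 FPKM in SFRP2-siRNA 1 to 3. SFRP2-siRNA 1 had the highest Cebpa level of all 6 libraries and SFRP2-siRNA 3 the lowest. Group means were 58.0 ± 7.06 and 51.1 ± 15.6 FPKM, giving a log2 fold change of -0.21 (SE 0.24, limma adjusted p = 0.685), which was -0.44 without SFRP2-siRNA 1 and -0.02 without SFRP2-siRNA 3.

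The 20 adipocyte markers set beside them had a median log2 fold change of -0.50 (-0.22 without SFRP2-siRNA 3). At an unadjusted p under 0.05, 5 genes were lower and 0 higher, beside 2.86% and 6.72% of all genes. The groups did not overlap for 4 genes, all lower, beside 3.92% of all genes. Adipoq, the hormone adiponectin, was measured at 196.5, 218.5 and 268.3 FPKM in NC 1 to 3 and at 287.5, 185.3 and 131.9 FPKM in SFRP2-siRNA 1 to 3, a log2 fold change of -0.24 (SE 0.31). Its highest and lowest levels fell in the same libraries as those of Cebpa. Fabp4, a fatty acid carrier, had a log2 fold change of -0.65 (SE 0.44), and Plin1, which coats lipid droplets, one of -0.86 (SE 0.37). The 5 lower markers, named here after their values were seen, were Gpd1, Adrb3, Slc2a4, Dgat2 and Lipe. Gpd1, which makes the glycerol backbone of triglycerides, was at 751.8 ± 348.9 FPKM in NC and at 175.7 ± 69.6 FPKM in those labelled SFRP2-siRNA, a log2 fold change of -2.06 (SE 0.42, limma adjusted p = 0.518).

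A score for the adipocyte markers was taken in each library as the mean deviation of their log2(FPKM + 1) values from the 6-library mean. It was 0.48, 0.17 and 0.26 in NC 1 to 3 and 0.35, -0.42 and -0.83 in SFRP2-siRNA 1 to 3, so the groups overlapped for the marker score as they did for Pparg and Cebpa. Pparg followed the score with a Pearson r of 0.98 over the 6 libraries (exact permutation p = 0.00278, and 0.0278 adjusted over 40 relations) and a Spearman rho of 0.94 (exact permutation p = 0.0167, adjusted 0.133). Without SFRP2-siRNA 2 and 3, the libraries farthest from the median score, r was 0.92, and for deviations from the group means it was 0.96. With any 1 library left out, r stayed at 0.98 or 0.99 and its adjusted exact permutation p was 0.0833 to 0.167. Cebpa gave r = 0.86 (exact permutation p = 0.0264, adjusted 0.111) and rho = 0.66 (exact permutation p = 0.175, adjusted 0.28), and r fell to -0.07 without SFRP2-siRNA 2 and 3, so that relation rested on those libraries. Markers of skeletal muscle, a tissue that lies under the skin fat, moved beside this score: their own score was -0.97, -0.30 and 0.26 in NC 1 to 3 and -0.31, 0.21 and 1.11 in SFRP2-siRNA 1 to 3, highest where the adipocyte score was lowest. The summed level of the 10 muscle markers was 3425.9 to 6848.7 FPKM in NC and 4634.2 to 12858.3 FPKM in those labelled SFRP2-siRNA, with no marker at 0 in all libraries. Their part in the result was not tested.

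The early adipogenic pair, Cebpb and Cebpd, had higher means in the libraries labelled SFRP2-siRNA. Cebpb was measured at 5.59, 9.17 and 16.1 FPKM in NC 1 to 3 and at 17.1, 21 and 12.2 FPKM in SFRP2-siRNA 1 to 3. NC 3 lay above SFRP2-siRNA 3, while NC 1 and NC 2 lay below all libraries labelled SFRP2-siRNA. Group means were 10.3 ± 5.32 and 16.7 ± 4.42 FPKM, giving a log2 fold change of 0.73 (SE 0.36, limma adjusted p = 0.524), which was 0.40 without NC 1 and 1.08 without NC 3. Cebpd was measured at 5.64, 9.62 and 5.88 FPKM in NC 1 to 3 and at 10.7, 9.92 and 9.33 FPKM in SFRP2-siRNA 1 to 3. The libraries labelled SFRP2-siRNA lay close together, and NC 2 lay among them. Group means were 7.05 ± 2.23 and 9.97 ± 0.668 FPKM, giving a log2 fold change of 0.48 (SE 0.20, limma adjusted p = 0.518). Relative to the median of all genes, the log2 fold changes were 0.61 for Cebpb and 0.35 for Cebpd.

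Genes of the acute response in which C/EBP factors act, 15 in all, had a median log2 fold change of 0.81. It was 0.46 without SFRP2-siRNA 2 and 1.28 without SFRP2-siRNA 3. At an unadjusted p under 0.05, 3 genes were higher and 0 lower, beside 6.72% and 2.86% of all genes. Their score was -0.15, -0.05 and -0.87 in NC 1 to 3 and 0.87, 0.93 and -0.73 in SFRP2-siRNA 1 to 3, so SFRP2-siRNA 3 lay with the NC libraries. Saa3, an acute phase protein, was measured at 10.4, 27.3 and 8.06 FPKM in NC 1 to 3 and at 54.9, 42.4 and 22.1 FPKM in SFRP2-siRNA 1 to 3, a log2 fold change of 1.42 (SE 0.50, limma adjusted p = 0.518). The iron-binding Lcn2 had one of -0.12 (SE 0.66) and the cytokine Il6 one of 0.28 (SE 0.56), both with overlapping groups. The remaining genes past that p, named after their values were seen, were the arginine enzymes Arg1 at 0.97 (SE 0.23) and Nos2 at 0.96 (SE 0.21). The difference between each and the list score went from -0.88 to 1.21 over the libraries for Cebpb and from -0.70 to 0.89 for Cebpd.

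Markers of macrophages and fibroblasts had, like this pair, higher means in the libraries labelled SFRP2-siRNA, though Cebpb and the macrophage score differed library by library. All 12 macrophage markers had higher means in the libraries labelled SFRP2-siRNA, beside 71.8% of all genes. Of them 9 were higher at an unadjusted p under 0.05 and 5 had groups that did not overlap, beside 6.72% and 13.9% of all genes. Their summed level was 889.1 to 1591.8 FPKM in NC and 1782.8 to 2325.0 FPKM in those labelled SFRP2-siRNA. Cd68 was at 112.6 ± 24.6 and 168.1 ± 38.5 FPKM, Adgre1 had a log2 fold change of 0.89 (SE 0.37) and Csf1r one of 0.69 (SE 0.26). Cebpd followed the macrophage score with r = 0.96 (exact permutation p = 0.00278, adjusted 0.0278) and rho = 0.94 (exact permutation p = 0.0167, adjusted 0.133), with 0.95 when NC 1 and NC 3 were left out and 0.92 for deviations from the group means. With any 1 library left out r was 0.93 to 0.99, with an adjusted exact permutation p of 0.0833 to 0.167. Cebpb gave r = 0.61 with that score (exact permutation p = 0.201, adjusted 0.307) and rho = 0.77 (exact permutation p = 0.103, adjusted 0.259). Its r was 0.25 for deviations from the group means, and in NC 3, where Cebpb was at 16.1 FPKM, the macrophage score was -0.51. Fibroblast markers also stood higher, with 7 of 10 at an unadjusted p under 0.05, beside 6.72% of all genes. Their summed level was 892.3 to 1982.0 FPKM in NC and 2171.8 to 2262.2 FPKM in those labelled SFRP2-siRNA. Of the 10 neutrophil markers 0 passed that p in either direction, and their median log2 fold change was 0.18. The part of these cells in the levels of Cebpb and Cebpd was not tested.

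The lipogenic sensors held the largest difference among the 10 genes. Mlxipl, the sugar-responsive factor, was measured at 31.1, 25.8 and 16.5 FPKM in NC 1 to 3 and at 12, 7.56 and 8.92 FPKM in SFRP2-siRNA 1 to 3. The highest library labelled SFRP2-siRNA lay below the lowest NC library. Group means were 24.5 ± 7.41 and 9.50 ± 2.28 FPKM, so the second was 38.8% of the first, a log2 fold change of -1.26 (SE 0.27, limma adjusted p = 0.518). Only 95 of the 16005 genes, 0.594%, had a lower log2 fold change. With each library left out in turn the value stayed between -1.51 and -1.07 and the groups did not overlap.

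Srebf1, the insulin-responsive factor, was measured at 32.6, 40 and 33.4 FPKM in NC 1 to 3 and at 29.8, 26 and 26.3 FPKM in SFRP2-siRNA 1 to 3. The groups did not overlap, but the gap between them was small, from 29.8 to 32.6 FPKM, and with equal sums scaling they overlapped (log2 fold change -0.26, SE 0.21, limma adjusted p = 0.587). Group means were 35.3 ± 4.09 and 27.4 ± 2.08 FPKM, giving a log2 fold change of -0.35 (SE 0.14, limma adjusted p = 0.518). Nr1h3, the sterol sensor, was measured at 14.3, 12.8 and 10.1 FPKM in NC 1 to 3 and at 14.1, 9.09 and 7.69 FPKM in SFRP2-siRNA 1 to 3. SFRP2-siRNA 1 again lay inside the NC range, as it did for Pparg. Group means were 12.4 ± 2.13 and 10.3 ± 3.36 FPKM, giving a log2 fold change of -0.28 (SE 0.24, limma adjusted p = 0.617), which was -0.51 without SFRP2-siRNA 1 and -0.11 without SFRP2-siRNA 3.

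Mlxipl and Srebf1 are both read from more than one start, and a gene level in FPKM does not separate them. The 250 bases before each of their starts in the RefSeq promoter table (GRCm38.p6) are shown because these are the sensors whose groups did not overlap, with the motifs that were searched in capitals. The table matched 8 of the 10 regulators with 14 starts. The windows before the Mlxipl starts lie on the + strand, at chr5:135089640-135089889 for start 1 and chr5:135106641-135106890 for start 2. The windows before the Srebf1 starts lie on the - strand, at chr11:60222582-60222831 for start 1, chr11:60220628-60220877 for start 2 and chr11:60210472-60210721 for start 3. Each is written 5′ to 3′ in the direction of the gene.
Mlxipl start 1: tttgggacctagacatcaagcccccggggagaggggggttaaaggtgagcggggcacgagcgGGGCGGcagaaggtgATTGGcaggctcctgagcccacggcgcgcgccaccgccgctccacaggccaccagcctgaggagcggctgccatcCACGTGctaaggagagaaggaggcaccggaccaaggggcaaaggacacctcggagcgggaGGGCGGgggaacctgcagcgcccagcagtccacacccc
Mlxipl start 2: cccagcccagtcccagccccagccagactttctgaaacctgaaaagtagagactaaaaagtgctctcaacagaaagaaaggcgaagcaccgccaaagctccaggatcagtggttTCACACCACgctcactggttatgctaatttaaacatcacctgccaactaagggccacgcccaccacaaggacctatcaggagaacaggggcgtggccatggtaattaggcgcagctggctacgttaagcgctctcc
Srebf1 start 1: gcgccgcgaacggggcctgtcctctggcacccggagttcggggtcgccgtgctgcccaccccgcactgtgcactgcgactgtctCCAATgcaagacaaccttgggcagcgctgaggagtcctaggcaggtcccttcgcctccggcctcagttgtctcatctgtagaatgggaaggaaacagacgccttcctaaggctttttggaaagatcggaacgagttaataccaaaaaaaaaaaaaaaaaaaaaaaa
Srebf1 start 2: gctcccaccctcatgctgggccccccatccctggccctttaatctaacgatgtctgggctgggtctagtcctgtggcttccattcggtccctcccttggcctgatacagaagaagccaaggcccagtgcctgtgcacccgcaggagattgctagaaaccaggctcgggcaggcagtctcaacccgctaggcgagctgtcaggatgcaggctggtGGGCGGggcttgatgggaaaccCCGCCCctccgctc
Srebf1 start 3: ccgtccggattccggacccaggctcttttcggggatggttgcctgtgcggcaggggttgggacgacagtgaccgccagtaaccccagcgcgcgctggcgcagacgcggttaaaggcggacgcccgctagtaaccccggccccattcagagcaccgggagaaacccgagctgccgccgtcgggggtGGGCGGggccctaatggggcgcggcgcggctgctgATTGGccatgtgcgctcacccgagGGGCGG

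The motifs were searched on both strands in the same 250 bases of all 32851 promoters of the table. Mlxipl start 1 held the E-box CACGTG, the palindrome bound by many basic helix-loop-helix factors, 98 to 93 bases before the start, a motif present in 6.02% of all promoters. Mlxipl start 2 held TCACNCCAC, the core of a sterol response element, 136 to 128 bases before the start, which 1.05% of all promoters hold. Of the 14 regulator promoters, 1 held each of these motifs. The CCAAT box, CCAAT, was found before Mlxipl start 1 and before Srebf1 starts 1 and 3, and is held by 33.8% of all promoters. The GC box, GGGCGG, was found before Mlxipl start 1 and before Srebf1 starts 2 and 3, beside 32.7% of all promoters. The search also covered AGGTCA (14% of all promoters), TCAAGGTCA, which contains it (0.387%), TTGCGCAA (0.164%), TGACGTCA (1.55%) and TATAAA (12.4%), and found none of these in the 5 sequences shown. A match is a run of letters in this window and no evidence that a factor was bound.

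Genes of fatty acid synthesis, on which these sensors act, mostly had lower means in the libraries labelled SFRP2-siRNA. Of 19 genes tested, 13 were lower and 0 higher at an unadjusted p under 0.05, the groups did not overlap for 14 of them, all lower, and the median log2 fold change was -0.94. Fasn, the fatty acid synthase, was measured at 579.2, 506.5 and 279.8 FPKM in NC 1 to 3 and at 124.3, 56.9 and 71.1 FPKM in SFRP2-siRNA 1 to 3, a log2 fold change of -2.43 (SE 0.39, limma adjusted p = 0.518). Acaca, which makes its substrate malonyl-CoA, had one of -1.92 (SE 0.29) and the desaturase Scd1 one of -1.99 (SE 0.59). Pklr, a known Mlxipl target in liver, was at most 0.0341 FPKM in any library and was not tested. The list score was 0.67, 0.58 and 0.30 in NC 1 to 3 and -0.30, -0.67 and -0.58 in SFRP2-siRNA 1 to 3, and the gap between the groups was wider than the spread within either, so no pooled correlation is given and the relation could not be tested. For deviations from the group means, r with this score was 0.98 for Mlxipl, 0.92 for Esrra, 0.89 for Nr1h3 and 0.50 for Srebf1, as a description over 6 libraries. Within NC the score and Mlxipl were both highest in NC 1 and lowest in NC 3, and within the libraries labelled SFRP2-siRNA both were highest in SFRP2-siRNA 1 and lowest in SFRP2-siRNA 2. Srebf1 was highest in NC 2, and Nr1h3 was as high in SFRP2-siRNA 1 as in NC 1.

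The other arms of these factors did not stand lower. Of 17 genes of sterol synthesis, driven mainly by the sister gene Srebf2, 1 was lower and 1 higher at an unadjusted p under 0.05, and their median log2 fold change was 0.06, which turned to -0.09 after median-of-ratios scaling and to -0.07 without NC 1. Hmgcs1, an enzyme of the early pathway, was measured at 54.4, 47.1 and 72.4 FPKM in NC 1 to 3 and at 60.3, 58.9 and 48.5 FPKM in SFRP2-siRNA 1 to 3, giving a log2 fold change of -0.03 (SE 0.20) with overlapping groups. Of 8 LXR targets that export or remodel lipid, 7 had a higher mean, beside 71.8% of all genes, and their median log2 fold change was 0.30, or 0.14 after median-of-ratios scaling and 0.16 without NC 1. The cholesterol exporters Abca1 and Abcg1 had log2 fold changes of 0.49 (SE 0.24) and 0.46 (SE 0.23), and Mylip, a ubiquitin ligase, one of 0.18 (SE 0.13), all with overlapping groups. Macrophages also express Abca1 and Abcg1, and the macrophage markers stood higher in the same libraries, as given above, but their part in these levels was not tested.

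**Figure D2:**
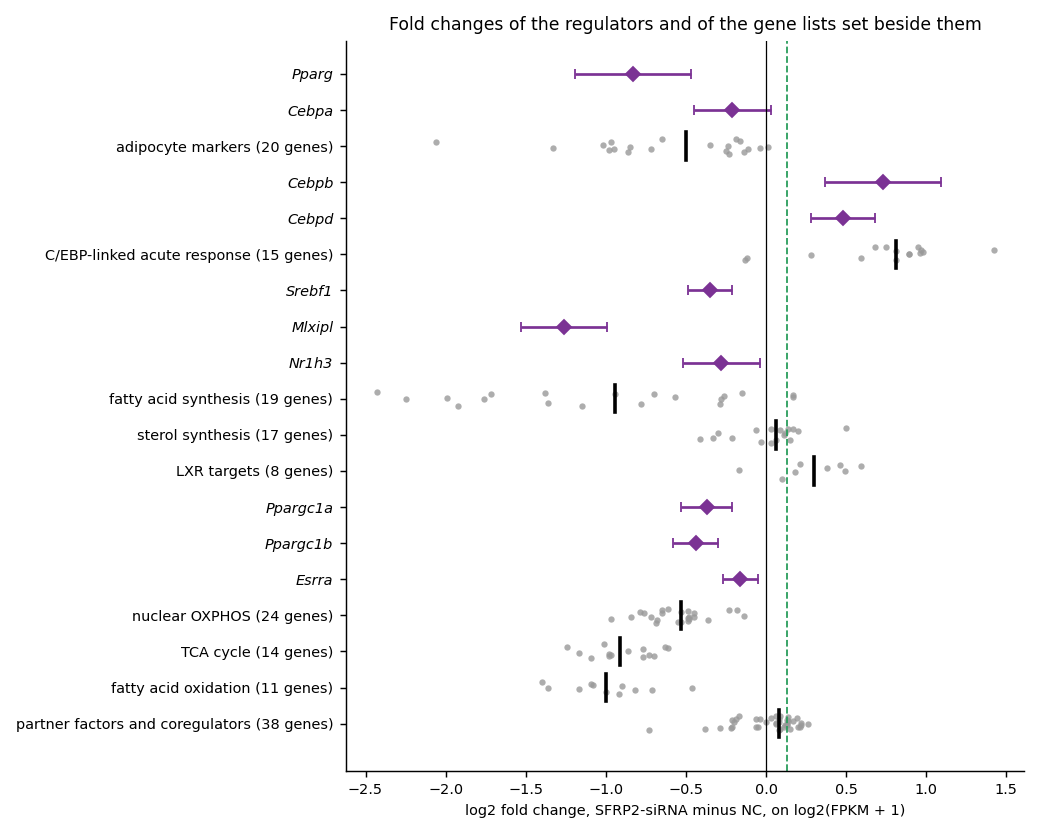
Log2 fold change of the 10 regulators (diamonds, whiskers of 1 SE) and of each tested gene in the lists set beside them (grey points, black bar at the list median), with the median of all genes as a dashed line. Mlxipl at -1.26 lies left of the fatty acid synthesis median of -0.94, while Srebf1 and Nr1h3 lie to its right, and the partner factors gather around 0.

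The mitochondrial regulators Ppargc1a, Ppargc1b and Esrra all had lower means in the libraries labelled SFRP2-siRNA, and both coactivators were low in level. Ppargc1b was measured at 2.42, 2.69 and 1.79 FPKM in NC 1 to 3 and at 1.42, 1.53 and 1.32 FPKM in SFRP2-siRNA 1 to 3. The groups did not overlap, and the libraries labelled SFRP2-siRNA lay close together. Group means were 2.30 ± 0.463 and 1.42 ± 0.101 FPKM, giving a log2 fold change of -0.44 (SE 0.14, limma adjusted p = 0.518). Ppargc1a was measured at 1.73, 2.02 and 1.46 FPKM in NC 1 to 3 and at 0.788, 1.10 and 1.52 FPKM in SFRP2-siRNA 1 to 3. SFRP2-siRNA 3 lay above NC 3, so the groups overlapped. Group means were 1.74 ± 0.284 and 1.14 ± 0.369 FPKM, giving a log2 fold change of -0.37 (SE 0.16, limma adjusted p = 0.52). At such levels the added 1 FPKM shrinks a fold change: with 0.1 FPKM added in its place, the values were -0.60 for Ppargc1a and -0.64 for Ppargc1b. Esrra was measured at 13.7, 13.8 and 12.9 FPKM in NC 1 to 3 and at 12.5, 11.8 and 11.5 FPKM in SFRP2-siRNA 1 to 3. The groups did not overlap, yet the gap between them was only 12.5 to 12.9 FPKM. Group means were 13.5 ± 0.462 and 12 ± 0.514 FPKM, giving a log2 fold change of -0.16 (SE 0.11, limma adjusted p = 0.578), and after equal sums scaling the groups overlapped.

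The nuclear genes of oxidative phosphorylation (OXPHOS) had lower means in all 24 cases. Their median log2 fold change was -0.53, or -0.64 to -0.37 with 1 library left out. Of them 14 were lower at an unadjusted p under 0.05 and 20 had groups that did not overlap. Over all genes 28.2% had a lower mean, 2.86% were lower at that p and 3.92% were lower without overlap. Ndufs1 of complex I, Sdhb of complex II and Cox5a of complex IV had log2 fold changes of -0.61 (SE 0.16), -0.76 (SE 0.27) and -0.48 (SE 0.18). The tricarboxylic acid (TCA) cycle list was lower at that p in 14 of 14 genes, and included Cs at -0.77 and Idh3a at -0.98. Its median was -0.91, or -1.05 to -0.67 with 1 library left out. Fatty acid oxidation had lower means in all 11 genes tested, 10 of them at that p, with Acadm at -1.17, Hadha at -1.08 and Hadhb at -1.36. Its median was -1.0, or -1.17 to -0.82 with 1 library left out. The 13 mitochondrially encoded genes, which are transcribed inside the mitochondrion, had a median of -1.0 with 4 genes lower at that p, and the median was -0.59 without NC 1. Among them mt-Nd1, mt-Co1 and mt-Atp6 had log2 fold changes of -0.81 (SE 0.56), -0.75 (SE 0.55) and -1.14 (SE 0.24). NC 1 held the highest OXPHOS score, 0.63 against 0.09 and 0.11 in NC 2 and 3 and -0.17, -0.40 and -0.26 in SFRP2-siRNA 1 to 3. Ppargc1a, Ppargc1b and Esrra had their highest level in NC 2 and not in NC 1.

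Of the thermogenic genes, which Ppargc1a and Pparg act on in brown and beige fat, 4 of 6 were lower at an unadjusted p under 0.05. Of all genes 2.86% were. The list had a median log2 fold change of -1.50 that became -0.99 without NC 1. Ucp1, the uncoupling protein, was measured at 1060.9, 615.4 and 314.5 FPKM in NC 1 to 3 and at 156.6, 39.9 and 19.1 FPKM in SFRP2-siRNA 1 to 3, a log2 fold change of -3.55 (SE 0.79, limma adjusted p = 0.518). Cidea, a lipid droplet protein, had one of -2.23 (SE 0.54) and Dio2, which activates thyroid hormone, one of -0.47 (SE 0.21). Ppargc1a itself spanned 0.788 to 2.02 FPKM over the same 6 libraries.

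The partner factors of these regulators had values close to those of all genes. Of the 40 partner factors and coregulators listed, 38 were tested, 1 was lower and 0 higher at an unadjusted p under 0.05, and the groups did not overlap for 2 lower and 1 higher gene. Their median log2 fold change was 0.08, beside 0.13 for all genes, and -0.06 after median-of-ratios scaling. Rxra, the heterodimer partner of Pparg and Nr1h3, was measured at 19.8, 23.3 and 31.2 FPKM in NC 1 to 3 and at 27.5, 26.7 and 29.9 FPKM in SFRP2-siRNA 1 to 3, a log2 fold change of 0.20 (SE 0.19). Srebf2, the sterol-controlled sister of Srebf1, had one of -0.05 (SE 0.16), and Mlx, the obligate partner of Mlxipl, one of -0.06 (SE 0.15). The lowest value belonged to Ppara, the receptor that drives fatty acid oxidation, at 2.80, 3.64 and 1.94 FPKM in NC 1 to 3 and 1.91, 0.938 and 1.00 FPKM in SFRP2-siRNA 1 to 3, a log2 fold change of -0.73 (SE 0.23, limma adjusted p = 0.518). The highest belonged to Mlxip, the sister gene of Mlxipl, at 0.26 (SE 0.19). Its groups overlapped, at 8.33 ± 2.12 FPKM in NC and 9.95 ± 0.592 FPKM in those labelled SFRP2-siRNA.

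Of 10 genes that hold back adipogenesis, 6 had a higher mean and 4 a lower one, beside 71.8% and 28.2% of all genes. Their median log2 fold change was 0.10, beside 0.13 for all genes, and their score overlapped between the groups. At an unadjusted p under 0.05, 3 were higher and 0 lower, beside 6.72% and 2.86% of all genes. The groups did not overlap for 4, all higher, beside 13.9% of all genes. Dlk1, a surface protein of preadipocytes, was measured at 0.601, 1.00 and 0.795 FPKM in NC 1 to 3 and at 1.15, 1.56 and 2.77 FPKM in SFRP2-siRNA 1 to 3, a log2 fold change of 0.62 (SE 0.22, limma adjusted p = 0.518). Gata2, a factor that represses Pparg, had one of 0.04 (SE 0.17) and Wnt10b one of -0.01 (SE 0.61). Zfp521, Klf2 and Nr2f2, named after their values were seen, were the other 3 genes without overlap, at 0.64 (SE 0.15), 0.41 (SE 0.16) and 0.27 (SE 0.16). Fibroblast markers, of the cells that express several of these genes, also stood higher, and their part was not tested.

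Each regulator was then set against a list of genes on which it acts, in the same library, as the regulator's log2 deviation minus the list score. Srebf1 minus the fatty acid synthesis score was -0.60, -0.22 and -0.19 in NC 1 to 3 and 0.24, 0.43 and 0.35 in SFRP2-siRNA 1 to 3. The groups did not overlap, and their means differed by 0.68 (exact permutation p = 0.1, the smallest that 3 against 3 libraries can give). Nr1h3 minus the same score went from -0.32, -0.39 and -0.42 to 0.62, 0.41 and 0.10, a difference of 0.75 without overlap (exact permutation p = 0.1). Nr1h3 was not set against the LXR targets, whose score was higher by 0.28 in the libraries labelled SFRP2-siRNA, while Nr1h3 itself had -0.28. Mlxipl minus the fatty acid synthesis score was 0.34, 0.17 and -0.17 in NC 1 to 3 and 0.00, -0.23 and -0.11 in SFRP2-siRNA 1 to 3, a difference of -0.23 with overlapping groups (exact permutation p = 0.3). Esrra minus the OXPHOS score gave a difference of 0.39 without overlap (exact permutation p = 0.1). The differences were 0.18 for Ppargc1a and 0.11 for Ppargc1b (exact permutation p = 0.6 each), and both turned negative, to -0.05 and -0.08, with 0.1 FPKM added. Against the adipocyte markers the differences were -0.23 for Pparg and 0.39 for Cebpa (exact permutation p = 0.2 each). Against the acute response they were 0.02 for Cebpb and -0.24 for Cebpd (exact permutation p = 1 and 0.8). Over these 10 differences the lowest adjusted exact permutation p was 0.333, so none passed the threshold. In 3 of 10 the groups did not overlap, and no share over all genes stands beside that count, since no other gene was set against a list. The fatty acid synthesis and OXPHOS scores used for these 3 were themselves lower without overlap. A gene that changes little can come out higher without overlap when such a score is taken from it. The count therefore says nothing particular to these regulators.

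**Figure D3:**
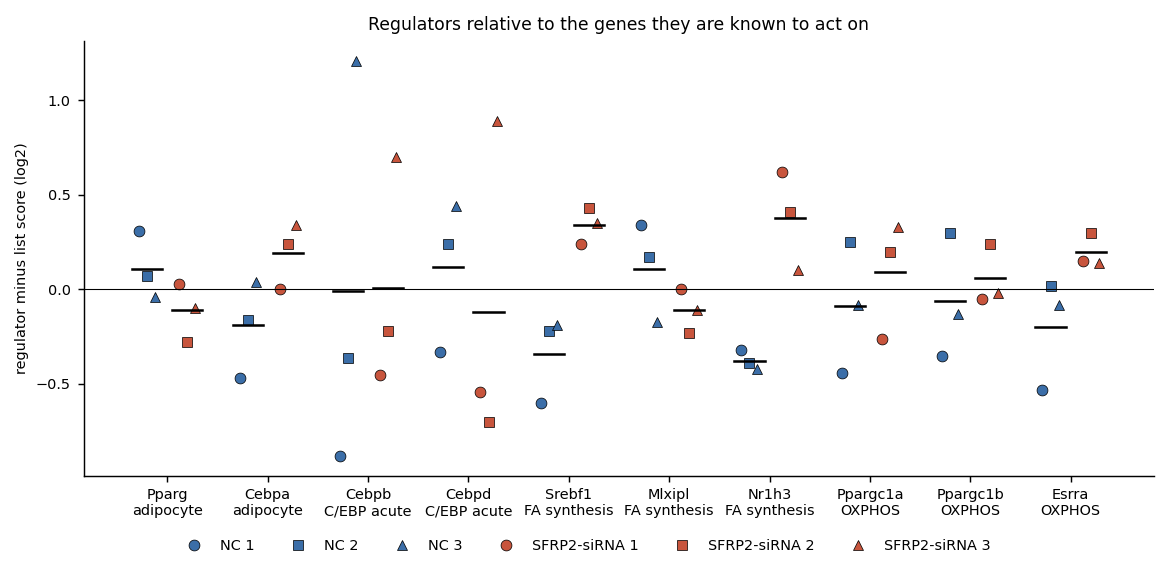
Regulator minus the score of the list it was set against in each library (log2 units), with NC in blue, SFRP2-siRNA in red and a bar at each group mean. Srebf1, Nr1h3 and Esrra have all SFRP2-siRNA points above all NC points, Mlxipl and Pparg have overlapping groups around 0, and both C/EBP genes span the widest range. The scores taken from Srebf1, Nr1h3 and Esrra were themselves lower without overlap, so a gene that changes little can show the same pattern.

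Among the 40 relations between a regulator and a list score, 14 had an unadjusted exact permutation p under 0.05 for r, 4 had an adjusted one under 0.05 for r and 0 for rho, whose lowest adjusted exact permutation p was 0.111. Of the 4, 1 was that of Mlxipl with the fatty acid synthesis score, which is not read here because its groups form separate clusters. The 14 also hold those of Srebf1, Ppargc1b and Esrra with that score, which are not read for the same reason. The OXPHOS and macrophage scores also did not overlap between the groups. Their gaps, from -0.17 to 0.09 and from 0.13 to 0.16, were narrower than the spread within NC. For OXPHOS that spread rested on NC 1, and the gap was wider than the spread in the libraries labelled SFRP2-siRNA, -0.40 to -0.17. The groups of Mlxipl did not overlap either, so its r with the OXPHOS score holds the group difference and is a description. Mlxipl followed the OXPHOS score with r = 0.92 (exact permutation p = 0.00278, adjusted 0.0278) and rho = 0.94 (exact permutation p = 0.0167, adjusted 0.133). Its r was 0.89 without NC 1 and SFRP2-siRNA 2 and 0.73 for deviations from the group means, and 0.89 to 0.99 with any 1 library left out, at an adjusted exact permutation p of 0.0833 to 0.286. Nr1h3 followed the adipocyte score with r = 0.91 (exact permutation p = 0.00694, adjusted 0.0556) and rho = 0.94 (exact permutation p = 0.0167, adjusted 0.133), with 0.54 once SFRP2-siRNA 2 and 3 were left out. The mitochondrial regulators gave lower values with the OXPHOS score: r was 0.84 for Esrra (exact permutation p = 0.0319, adjusted 0.111), 0.75 for Ppargc1b (exact permutation p = 0.0792, adjusted 0.198) and 0.56 for Ppargc1a (exact permutation p = 0.25, adjusted 0.344). Their rho values were 0.77, 0.66 and 0.49 (exact permutation p = 0.103, 0.175 and 0.356, adjusted 0.259, 0.28 and 0.474). For deviations from the group means their r fell to 0.40, 0.14 and -0.12. The groups of Esrra and Ppargc1b did not overlap, so their r with the OXPHOS score also holds the group difference and is a description.

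**Figure D4:**
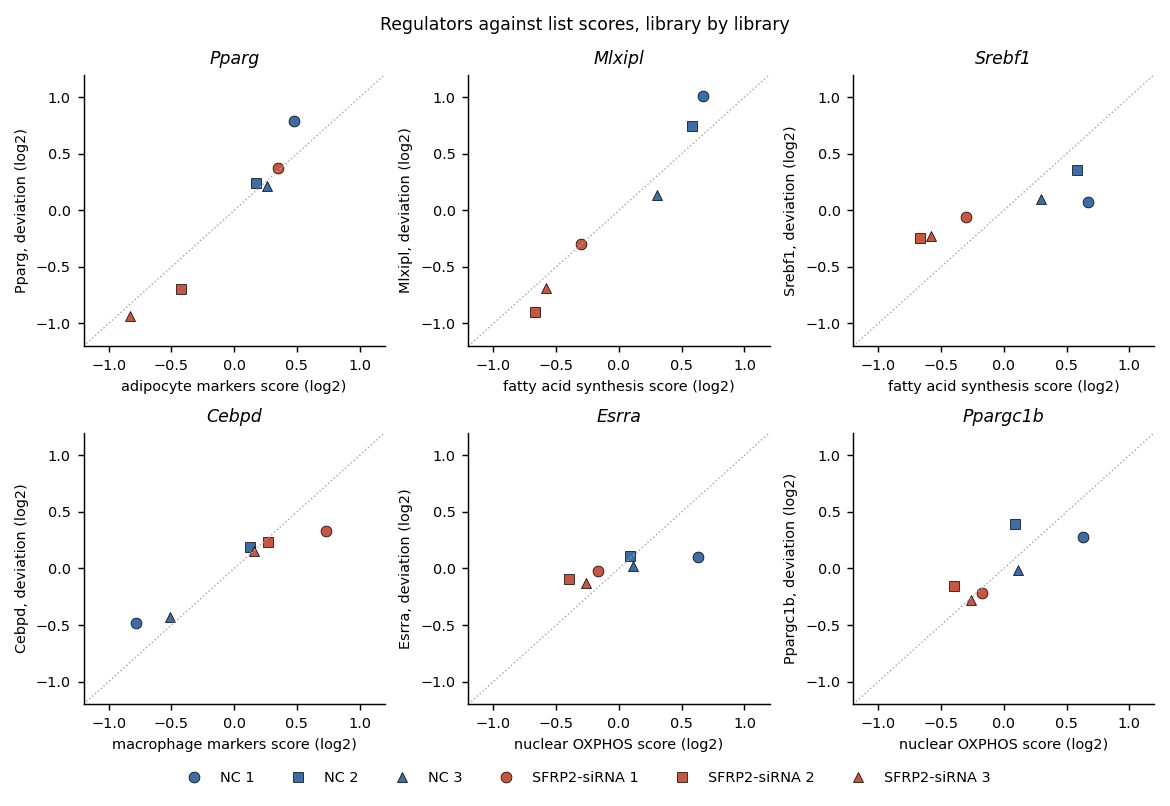
Log2 deviation of 6 regulators from their 6-library mean against a list score, 1 point per library, with NC in blue, SFRP2-siRNA in red and a dotted line where both are equal. Pparg lies near the line, and Mlxipl forms separate clusters by group that lie more steeply than it. Srebf1 and Esrra rise less steeply than the line, and Cebpd follows the macrophage score with NC 2 among the SFRP2-siRNA points.

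In order of level in NC, Cebpa stood first at 58.0 FPKM, followed by Pparg at 35.5 and Srebf1 at 35.3, Mlxipl at 24.5, Esrra at 13.5, Nr1h3 at 12.4, Cebpb at 10.3, Cebpd at 7.05, Ppargc1b at 2.30 and Ppargc1a at 1.74 FPKM. Cebpa, Mlxipl and the pair of coactivators were set apart from their neighbours, while Pparg and Srebf1 overlapped, as did Esrra, Nr1h3, Cebpb and Cebpd from one to the next. In the libraries labelled SFRP2-siRNA, Mlxipl stood 8th at 9.50 FPKM in place of 4th, below Cebpb at 16.7 and Esrra at 12 FPKM. There Cebpa at 51.1 FPKM lay above every other regulator, the next 7 overlapped each with its neighbour, and Ppargc1b and Ppargc1a again came last and overlapped.

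The genes most like each regulator over the 6 libraries were sought among the 8097 or 8098 genes averaging 5 FPKM or more, by Pearson r as a description. With only 6 points, 2 groups and shared libraries, many genes reach a high r: 181 lay above 0.95 for Cebpd, 131 for Mlxipl, 89 for Esrra, 79 for Pparg and 0 for Ppargc1a. Hsd11b1, which regenerates active glucocorticoid, led for Pparg at 0.999, followed by Fam213a and Aldh6a1 at 0.996 and 0.994. Adipoq led for Cebpa at 0.99, followed by Cidec, a lipid droplet protein, at 0.986 and Mfng at 0.984. Ahcyl1, Gm10222 and the complex II subunit Sdha were nearest to Mlxipl, at 0.998, 0.997 and 0.993. For Srebf1 the nearest were Fam53b, Cspg4 and Gm21399 at 0.979, 0.974 and 0.97. Plin2, which coats lipid droplets, stood second for Nr1h3 at 0.984, between Sfxn1 at 0.994 and Suclg2 at 0.982, and Plin5, a droplet protein of oxidative tissue, ranked next for Esrra at 0.991, below Slc25a51 and Pald1 at 0.993 and 0.992. Medag, Unc93b1 and Efemp2 were nearest to Cebpd at 0.997, 0.997 and 0.996, and Atg12, Slc39a11 and Mvd to Cebpb at 0.987, 0.985 and 0.981. Parm1, Mavs and Acot11 were nearest to Ppargc1b at 0.993, 0.974 and 0.971. Pdk1, Mfn2 and Xrcc6 were nearest to Ppargc1a at 0.948, 0.946 and 0.926.

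Other cells that use these regulators were also measured. The 8 sebocyte markers had 0 genes past an unadjusted p under 0.05 in either direction, a median log2 fold change of 0.16 and a summed level of 197.3 to 395.8 FPKM in NC and 213.7 to 265.2 FPKM in those labelled SFRP2-siRNA, and Scd3, Mc5r and Awat2 had log2 fold changes of 0.18, 0.14 and 0.39. The 10 keratinocyte markers had 1 lower and 0 higher, a median of -0.18, and Krt14, Krt10 and Trp63 at 0.25, -0.83 and 0.00 with overlapping groups. The 8 endothelial markers had 0 in either direction, a median of 0.03, and Pecam1, Cdh5 and Kdr at 0.14, -0.09 and -0.25. Of the muscle markers 0 passed that p, and Acta1, Ckm and Myh4 had log2 fold changes of 0.49, 0.62 and 1.04. Col1a1, Pdgfra and Dcn of the fibroblast list were at 0.90, 0.83 and 0.75, and Ly6g, Cxcr2 and Retnlg of the neutrophil list at 0.36, 0.69 and 1.21. The neutrophil list was divided, with 5 genes higher in mean and 5 lower, beside 71.8% and 28.2% of all genes. With 1 library left out, the medians ran from 0.00 to 0.30 for sebocytes, from -0.50 to 0.05 for keratinocytes, from -0.19 to 0.20 for endothelium, from 0.27 to 1.03 for muscle and from 0.00 to 0.57 for neutrophils. No marker of these lists was at 0 in all libraries, and none of the 10 regulators is used by 1 cell type alone, so a level in FPKM does not say which cells held the RNA.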

How the data were processed

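RNA-seq was performed on 6 wound libraries, and the authors deposited 1 table of FPKM values per gene, normalized for gene length and library size. The submitters' processing notes name HISAT2, featureCounts and Subread, and the genome build is not given in the sources used here. Symbols were found for 32582 of 33184 Ensembl IDs. Whole reads were recovered from the steps between values (at least 98.5% of values under 300 reads whole within 0.05 reads).

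Genes averaging 0.5 FPKM or more were tested on log2(FPKM + 1) with limma 3.58.1 in R 4.3.3 (trend, 3 against 3), with Benjamini-Hochberg adjustment over all 16005 genes. A fold change on this scale understates the change of low genes. A call needed an adjusted p under 0.05 and an absolute log2 fold change above 1, the thresholds of the study's methods. Adjusted p-values come from limma, and exact permutation tests were two-sided. Unadjusted p-values are from the same limma fit unless called exact.

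The text names the 10 regulators, Sfrp2, the first 3 tested genes of each list, the highest and lowest partner factor, and for each regulator the 3 genes with the highest r. Some genes that this rule names are not reported here. Other genes are named after their values were seen, and this is said beside them. The members and lists were chosen with earlier results of these data known. The scripts were tested on simulated data. Alternatives covered pseudocount, filter, scaling, sample weights, limma voom on recovered reads, a replicate block and leaving out each library.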

Additional observations from a re-analysis of the deposited data

How the results depend on the processing

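All 168 log2 fold changes of the 10 regulators under the alternatives kept their direction and none passed the adjusted threshold. No gene had an adjusted call in limma under any alternative. The genes at an unadjusted p under 0.05 that were higher numbered 1075, but 436 after median-of-ratios scaling, 420 with equal sums without mitochondrially encoded genes, 470 after quantile normalization and 458 to 1572 with 1 library left out, the lowest without NC 1. Those that were lower numbered 458, but 699 with no filter, 817 with sample weights, 749 after median-of-ratios scaling and 305 to 582 with 1 library left out, the lowest without SFRP2-siRNA 3. Higher genes whose groups did not overlap numbered 2226, but 884, 743 and 975 under the same 3 scalings and 2541 to 4657 with 1 library left out. Lower ones numbered 628, but 1027 with no filter, 1230 after median-of-ratios scaling, 1030 after quantile normalization and 882 to 1270 with 1 library left out. With fewer libraries, groups separate more readily. Of the regulators, 3 were lower at an unadjusted p under 0.05, but 6 after median-of-ratios scaling (beside 4.69% of all genes) and 1 with equal sums (1.92%). The count was 5 with equal sums without mitochondrially encoded genes (4.07%) and 5 with sample weights (5.1%). With 1 library left out it was 1 to 5, at 1 without NC 2 (2.51%) and 5 without SFRP2-siRNA 1 (3.64%). At that p 0 were higher (beside 6.72% of all genes), but 1 at a filter of 2 FPKM (6.81%), 1 with sample weights (8.85%) and 1 with voom (6.76%). With 1 library left out 0 to 1 were higher (2.84% to 9.83%). Of the regulators 4 lay wholly lower (beside 3.92% of all genes), but 2 with equal sums (2.79%). With 1 library left out 4 to 7 lay wholly lower, with 7 without SFRP2-siRNA 1 (7.95%). Wholly higher lay 0 (beside 13.9%), but 0 to 2 with 1 library left out, with 2 without SFRP2-siRNA 3 (22.1%).

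Regulator minus list turned for Cebpb at a filter of 2 FPKM (-0.02, and -0.42 to 0.63 with 1 library left out), for Cebpd (-0.74 to 0.05 with 1 left out), for Ppargc1a with 0.1 FPKM added (-0.05) and for Ppargc1b with 0.1 FPKM added (-0.08, and -0.03 to 0.29 with 1 left out). With 1 library left out, r with the macrophage score ran from -0.62 to 0.23 for Cebpa, turning to 0.23 without NC 3, 0.03 without SFRP2-siRNA 2 and 0.11 without SFRP2-siRNA 3. It ran from -0.60 to 0.39 for Nr1h3, turning without NC 1. That of Ppargc1a with the adipocyte score ran from -0.13 to 0.49, at -0.13 without NC 1, -0.07 without NC 2 and -0.12 without SFRP2-siRNA 2. The cause of these shifts was not tested.

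The labels give both groups the numbers 1 to 3 and do not say that these are pairs. Deviations of same-numbered libraries had r of -0.047, -0.151 and 0.38, which can neither show nor exclude a pairing. A replicate block changed the SE of Pparg from 0.36 to 0.19 and that of Cebpb from 0.36 to 0.39. With a replicate block, 674 genes were lower and 1255 higher at an unadjusted p under 0.05, with 0 adjusted calls and a lowest adjusted p of 0.193 in limma.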
